A study of Mus musculus with 6 samples.

Results

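GATOR1, GATOR2 and KICSTOR are the protein complexes that report amino acid supply to the kinase complex mTORC1 at the lysosome. The members described here are 9 genes chosen by name from the 14915 symbols of the deposited table: DEPDC5, NPRL2 and NPRL3 for GATOR1, MIOS, WDR24, WDR59, SEH1L and SEC13 for GATOR2, and KPTN for KICSTOR. All 9 were listed, and all 9 averaged at least 1 TPM over the libraries and so entered the test. RNA-seq had been run on 6 libraries labelled B16F10, an established mouse melanoma cell line. The 3 S127A libraries were described as B16F10 cells with a substitution in the zinc finger factor ZBTB5. There ZBTB5 carries an alanine in place of a serine that can otherwise be phosphorylated. The 3 WT libraries were described as B16F10 cells without the substitution. Both groups had been given TNFα under amino acid limitation, and no untreated cells were analysed here. The series asks how this phosphorylation bears on mTORC1 activation in inflammation. The sources used here give neither the duration of treatment nor the number of clones, nor whether replicates were separate cultures. The p-values therefore speak only for the variation among these libraries, and that variation may be technical.

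GATOR1 is a GTPase-activating complex for the Rag GTPases RagA and RagB: it switches them off when amino acids run short, and mTORC1 then leaves the lysosome. GATOR2 acts against GATOR1, and leucine and arginine sensors (Sestrin and CASTOR proteins) bind GATOR2 when their amino acid is missing. KICSTOR, whose subunits include KPTN and ITFG2, holds GATOR1 on the lysosomal surface. SEH1L and SEC13 also serve elsewhere, both of them in the Y complex of the nuclear pore and SEC13 in the outer COPII coat of vesicles that leave the endoplasmic reticulum.

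The libraries of the 2 groups stood far apart. Of 10348 tested genes 90.0% passed the test (limma on log2(TPM + 1), Benjamini-Hochberg adjusted p under 0.05, the rule used throughout), 40.2% higher and 49.8% lower in S127A. All 10 melanocyte markers examined fell, and their summed level was 114 to 123 TPM in S127A libraries, against 19198 to 19376 TPM in WT libraries. SOX10, a defining factor of the lineage, was at 0.48 to 0.71 TPM in S127A, against 338 to 346.5 TPM in WT. By these markers the S127A libraries did not match the melanoma line named in their labels. Of 10 fibroblast markers, 6 were tested, of which 5 were higher and 1 lower, with summed levels of all 10 of 301 to 313 TPM in S127A and 16.2 to 17.2 TPM in WT. Most of that S127A sum was the collagen gene COL1A2 (267 to 279 TPM). COL1A1, PDGFRA, PDGFRB and FAP were also higher, by log2 fold changes of 2.88, 2.33, 0.69 and 1.84. POSTN was the 1 that was lower, at 0.067 ± 0.023 TPM in S127A and 7.79 ± 0.912 TPM in WT (SD, n = 3 each). Among the untested markers, COL3A1 and DCN averaged 1.25 and 1.02 TPM in S127A, against 0.02 and 0 TPM in WT. LUM and THY1 were listed at 0 in all 3 S127A libraries and at or below 0.07 TPM in WT, too low to compare. Immune markers summed to 49.4 to 52.3 TPM in S127A and 7.59 to 8.73 TPM in WT. CD14 made up most of it in S127A (43.2 to 46.5 TPM, listed at 0 in WT), CD68 was lower (4.69 ± 0.409 TPM in S127A and 7.64 ± 0.601 TPM in WT), and the pan-leukocyte PTPRC was at or below 0.1 TPM in every library. Endothelial or epithelial markers summed to 63.5 to 64.3 TPM in S127A and 1.37 to 1.76 TPM in WT, nearly all of it the keratin KRT18 in S127A and mostly VWF in WT. The part of these marker differences in the results that follow was not tested. ZBTB5 itself was at 9.24, 8.24 and 9.21 TPM in S127A and 15.9, 14.9 and 15.7 TPM in WT, a level that does not show the substitution.

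Among the 9 subunits, 5 fell (DEPDC5, NPRL2, NPRL3, SEC13 and KPTN), 2 rose (WDR24 and SEH1L) and 2 did not pass (MIOS and WDR59). That is 7 of 9 called, beside 90.0% of all tested genes, so the count of calls is not a result about the subunits. The changes were small for these libraries. The median absolute log2 difference over the 9 was 0.29, against 0.69 over all tested genes, and 7 of the 9 lay below that all-gene median. None reached the 2-fold change that 35.4% of tested genes passed. The 3 S127A values lay wholly above the 3 WT values for 3 subunits, beside 40.4% of tested genes, and wholly below them for 6 subunits, beside 49.8%, which makes 9 of 9 without overlap, beside 90.2% of tested genes in either direction. In bulk RNA, fewer cells of a type and less RNA per cell cannot be told apart for any of these levels.

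**Figure D1:**
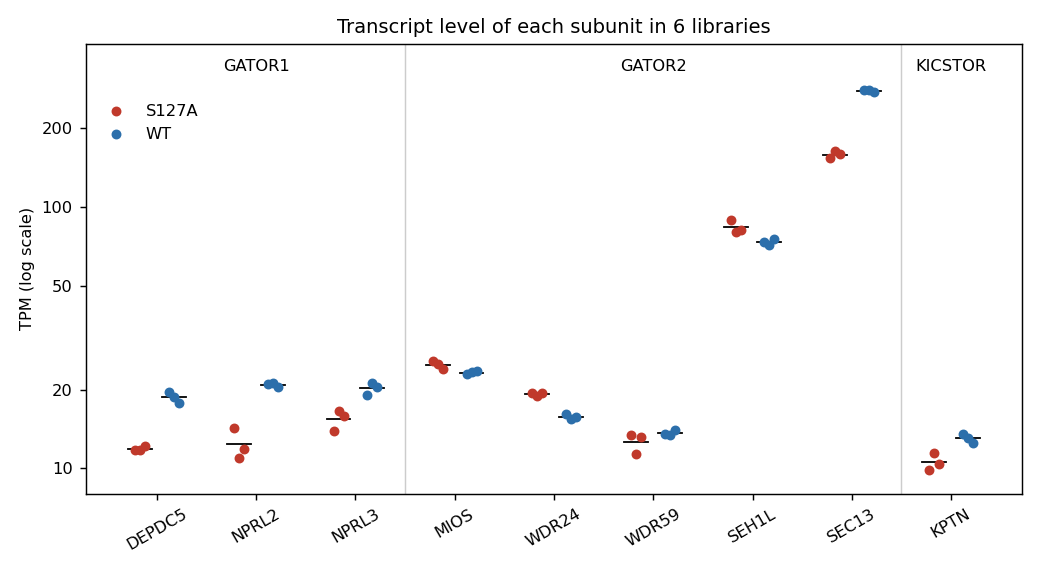
TPM of each of the 9 subunits on a log axis. Each point is 1 library (S127A in red, WT in blue) and each bar is the mean of 3. The GATOR1 points are lower in S127A for all 3 subunits, whereas those of WDR24, SEH1L and MIOS are higher and SEC13 stands above all others in both groups.

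Each subunit of GATOR1 was called lower in S127A, beside 49.8% of all tested genes. The human gene of DEPDC5, a GATOR1 subunit that binds the Rag dimer, is mutated in familial focal epilepsy. In mouse, DEPDC5 lies on chromosome 5 (32863701 to 32994236, plus strand, mm10). It was at 11.7, 11.8 and 12.1 TPM in the S127A libraries, against 19.5, 18.8 and 17.8 TPM in the WT libraries. The groups did not overlap, and the S127A values lay closer together than the WT values. The log2 fold change was −0.61 (SE 0.0537, adjusted p = 8.07e-07 by limma).

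NPRL2, the subunit that carries the catalytic arginine of the GTPase-activating activity, is a short gene on chromosome 9 (107542226 to 107545706, plus strand). It was at 14.3, 10.95 and 11.9 TPM in S127A, against 21.0, 21.2 and 20.5 TPM in WT. The S127A libraries varied more than the WT ones, with an SD of 1.71 TPM against 0.357 TPM, and all 3 lay below the lowest WT value. The log2 fold change of −0.72 (SE 0.0811, adjusted p = 6.92e-06 by limma) was the largest of the 3 GATOR1 subunits.

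NPRL3, the partner of NPRL2, is known for introns that hold distal enhancers of the neighbouring alpha-globin genes and lies on chromosome 11 (32225628 to 32267707, minus strand). It was at 13.9, 16.6 and 15.9 TPM in S127A, against 19.2, 21.1 and 20.5 TPM in WT. Its fall was the smallest of the 3 GATOR1 subunits, with a log2 fold change of −0.37 (SE 0.0689, adjusted p = 0.000385 by limma), and again no S127A library reached a WT one. The gene overlaps MPG on the opposite strand by 6196 bp, and whether the counting used strand is not given in the sources used here. MPG, a DNA glycosylase, was at 19.1, 19.2 and 20.2 TPM in S127A and 14.9, 16.9 and 19.6 TPM in WT and did not pass (adjusted p = 0.0548 by limma).

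The 3 GATOR1 subunits stood at like levels per length in WT, with means of 18.7 ± 0.851 TPM for DEPDC5, 20.9 ± 0.357 TPM for NPRL2 and 20.3 ± 1.01 TPM for NPRL3 (SD, n = 3 each). In S127A the means were 11.9 ± 0.226, 12.4 ± 1.71 and 15.5 ± 1.39 TPM for the same genes, so that NPRL3 kept 76.3% of its WT mean while DEPDC5 kept 63.5% and NPRL2 59.1%. The NPRL2 to NPRL3 ratio was 1.03, 0.66 and 0.75 in the S127A libraries, against 1.1, 1.0 and 1.0 in the WT libraries. The first S127A library, with the highest NPRL2 and the lowest NPRL3 of its group, therefore had a ratio within the WT range, and the other two S127A libraries lay below it. No test was made of these ratios.

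Promoter sequence is shown for the 5 subunits that fell, of which 3 belong to 1 complex. Each window runs from 250 bases before to 50 bases after the gene's start in RefSeq (GRCm38.p6), 5′ to 3′ on the gene's own strand, and 7 of the 9 subunits matched the table (DEPDC5, NPRL2, NPRL3, MIOS, WDR59, SEC13 and KPTN). Capitals mark matches to the motifs described after the sequences. The windows are DEPDC5 (chr5:32863471-32863770, plus strand), NPRL2 (chr9:107541959-107542258, plus strand), NPRL3 (chr11:32267658-32267957, minus strand), SEC13 (chr6:113740632-113740931, minus strand) and KPTN (chr7:16119626-16119925, plus strand).
DEPDC5: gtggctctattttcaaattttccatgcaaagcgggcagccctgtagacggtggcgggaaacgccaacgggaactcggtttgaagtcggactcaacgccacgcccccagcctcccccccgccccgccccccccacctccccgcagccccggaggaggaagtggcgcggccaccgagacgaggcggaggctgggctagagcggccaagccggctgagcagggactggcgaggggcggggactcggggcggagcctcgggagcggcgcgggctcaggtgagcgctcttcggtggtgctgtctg
NPRL2: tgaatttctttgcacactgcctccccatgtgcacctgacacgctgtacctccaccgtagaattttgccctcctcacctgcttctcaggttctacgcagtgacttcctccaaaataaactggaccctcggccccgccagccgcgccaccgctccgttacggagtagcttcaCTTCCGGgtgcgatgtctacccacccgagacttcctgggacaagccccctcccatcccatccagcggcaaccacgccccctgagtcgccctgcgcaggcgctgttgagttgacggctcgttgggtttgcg
NPRL3: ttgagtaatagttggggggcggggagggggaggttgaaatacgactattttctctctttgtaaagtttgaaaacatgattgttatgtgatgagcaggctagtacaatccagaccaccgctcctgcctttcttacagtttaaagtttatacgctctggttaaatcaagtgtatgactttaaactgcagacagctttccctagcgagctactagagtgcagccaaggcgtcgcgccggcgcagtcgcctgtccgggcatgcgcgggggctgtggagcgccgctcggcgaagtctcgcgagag
SEC13: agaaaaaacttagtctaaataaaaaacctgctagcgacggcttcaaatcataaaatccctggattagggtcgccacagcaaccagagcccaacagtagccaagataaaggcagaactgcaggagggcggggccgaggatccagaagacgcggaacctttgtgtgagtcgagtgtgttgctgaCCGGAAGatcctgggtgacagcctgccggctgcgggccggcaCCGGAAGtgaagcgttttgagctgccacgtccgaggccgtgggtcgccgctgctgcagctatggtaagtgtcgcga
KPTN: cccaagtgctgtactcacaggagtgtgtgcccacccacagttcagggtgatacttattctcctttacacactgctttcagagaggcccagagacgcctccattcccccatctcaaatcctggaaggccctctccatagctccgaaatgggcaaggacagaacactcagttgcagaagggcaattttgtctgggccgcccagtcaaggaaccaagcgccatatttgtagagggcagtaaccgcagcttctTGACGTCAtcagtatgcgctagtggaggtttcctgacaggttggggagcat

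Motifs were searched on both strands. None of the 7 windows held CACGTG, an E-box form read by MiT/TFE factors such as MITF and by MYC. Of the 10245 windows of tested genes 10.1% hold it, and other E-box forms were not searched. None held TGANTCA, the AP-1 site (4.89% of those windows), or TGATGNAA, the composite site of CHOP and ATF factors (2.21%). A pair of further motifs was added after the windows had been read. CCGGAAG, an ETS factor core, occurred at bases 183 to 189 and 225 to 231 of the SEC13 window and, on the opposite strand, at bases 171 to 177 of the NPRL2 window, counted from 1 at the 5′ end (17.7% of the windows of tested genes hold it). TGACGTCA, the cyclic AMP response element, occurred at bases 250 to 257 of the KPTN window, across the annotated start (3.12%). None of these motifs overlapped another. DEPDC5, NPRL3, MIOS and WDR59 held none of the 5 motifs. The windows of DEPDC5 and NPRL3 also differed in base composition, with 70.3% and 52.0% G and C, against a median of 61.3% over the windows of tested genes.

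GATOR2 did not move as 1 block. Its members MIOS, WDR24 and WDR59 are scaffold proteins with beta-propellers that are dedicated to this complex. WDR24, which in GATOR2 carries a RING domain needed for the complex to act on the pathway, lies on chromosome 17 (25823627 to 25828730, plus strand). It was at 19.5, 18.9 and 19.5 TPM in S127A, against 16.2, 15.4 and 15.8 TPM in WT. The groups were separated by a gap several times wider than their spread, with a log2 fold change of 0.28 (SE 0.048, adjusted p = 0.000237 by limma). A long noncoding gene, Gm26694, overlaps all 5104 bp of it on the same strand, so the reads of the pair may be shared.

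MIOS, on chromosome 6 (8209222 to 8236274, plus strand), was at 25.8, 25.1 and 24.0 TPM in S127A, against 22.9, 23.3 and 23.6 TPM in WT. The lowest S127A value was just above the highest WT value, and the difference of 0.10 on the log2 scale did not pass (95% interval −0.0064 to 0.20, adjusted p = 0.0696 by limma). It passed, as higher in S127A, under each rescaling of the libraries, by 0.21 with trimmed-mean factors (adjusted p = 0.00132 by limma), by 0.16 after quantile normalization (adjusted p = 0.00775) and by 0.15 at a common total (adjusted p = 0.0107). It also passed without a filter (adjusted p = 0.042) and without S127A replicate 3 (0.12, adjusted p = 0.0447), and its adjusted p ran from 0.00132 to 0.173 over 16 alternatives.

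WDR59, on chromosome 8 (111448797 to 111522092, minus strand), was at 13.4, 11.3 and 13.2 TPM in S127A, against 13.5, 13.5 and 14.1 TPM in WT. Apart from the second S127A library its values nearly met, and the difference of −0.11 on the log2 scale did not pass (95% interval −0.26 to 0.041, adjusted p = 0.147 by limma). Its sign turned with trimmed-mean factors (0.0029, adjusted p = 0.969). Without the second S127A library the difference was −0.039, and it ran from −0.15 to −0.039 over the 6 fits that each left out 1 library. The interval includes 0 and changes in either direction, so it does not show that WDR59 was the same in both groups.

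**Figure D2:**
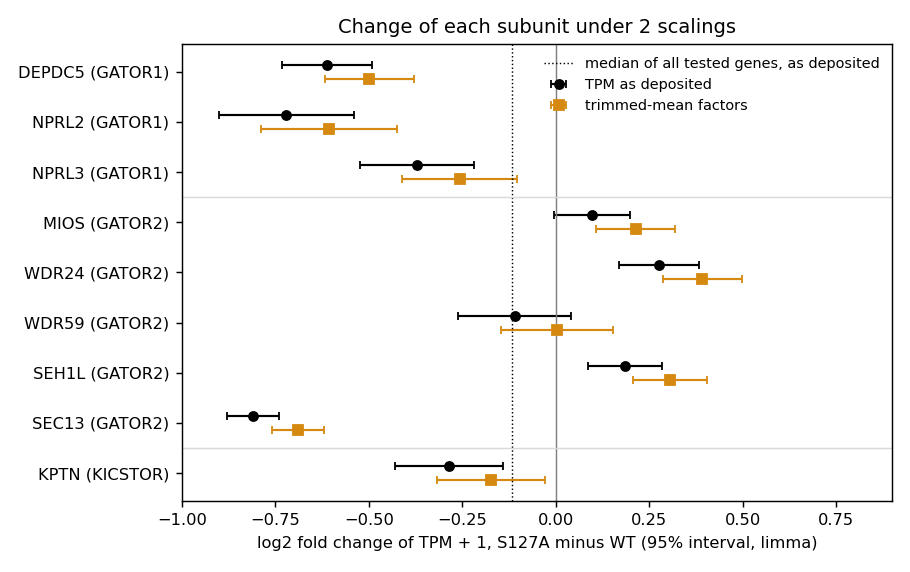
Log2 fold change (S127A minus WT) of each subunit with its 95% interval from limma, n = 3 libraries per group, for TPM as deposited (black circles) and after trimmed-mean scaling (orange squares). The dotted line is the median of all tested genes as deposited, −0.12. DEPDC5, NPRL2 and SEC13 lie well to the left of it under both scalings. WDR59 lies at the line as deposited and near 0 after trimmed-mean scaling. The median of all tested genes after that scaling, −0.00070, is not drawn.

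SEH1L and SEC13, the beta-propeller subunits that GATOR2 shares with the nuclear pore, went in opposite directions. SEH1L, on chromosome 18, was at 89.1, 80.3 and 81.3 TPM in S127A, against 73.4, 71.5 and 75.1 TPM in WT. It rose by a log2 fold change of 0.18 (SE 0.0444, adjusted p = 0.00232 by limma), with the first S127A library highest. An antisense gene, 4930549G23Rik, overlaps its whole length, and reads of the 2 strands cannot be told apart without strand information.

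SEC13, on chromosome 6 (113728062 to 113740743, minus strand), had the highest level of the 9. It was at 153, 163 and 159 TPM in S127A, against 281, 279.5 and 275 TPM in WT. This was the largest change among the subunits, a log2 fold change of −0.81 (SE 0.0312, adjusted p = 6.2e-10 by limma), and 43.5% of all tested genes changed more in absolute size. The ratio of SEC13 to SEH1L was 1.72, 2.03 and 1.95 in the S127A libraries, against 3.82, 3.91 and 3.66 in the WT libraries. SEC13 remained the more abundant of the pair in all 6 libraries.

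KPTN, the kaptin subunit of KICSTOR, lies on chromosome 7 (16119895 to 16127516, plus strand) and had the lowest mean of the 9 in both groups. It was at 9.88, 11.4 and 10.4 TPM in S127A, against 13.6, 13.1 and 12.5 TPM in WT. The log2 fold change was −0.29 (SE 0.0651, adjusted p = 0.00167 by limma). Beside it, ITFG2 was at 34.0, 32.3 and 32.3 TPM in S127A, against 30.7, 32.3 and 31.6 TPM in WT, and did not pass (adjusted p = 0.213 by limma). It passed as higher with trimmed-mean factors (0.18, adjusted p = 0.0029), after quantile normalization (0.12, adjusted p = 0.0219) and at a common total (0.11, adjusted p = 0.0308), all by limma. KICS2 was not analysed here. The KPTN to ITFG2 ratio was 0.29, 0.353 and 0.321 in the S127A libraries, against 0.443, 0.406 and 0.396 in the WT libraries, and no test was made of it.

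The scaling of the libraries bears on changes of this size. The median log2 difference of all tested genes was −0.12 on TPM as deposited and −0.00070 after trimmed-mean scaling, which raised every subunit by a like amount. Against that shift the falls became −0.50 for DEPDC5, −0.61 for NPRL2, −0.26 for NPRL3, −0.69 for SEC13 and −0.17 for KPTN (adjusted p = 0.0267 by limma for KPTN, the highest of the 5), and the rises became 0.39 for WDR24 and 0.30 for SEH1L. All 7 calls held.

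**Figure D3:**
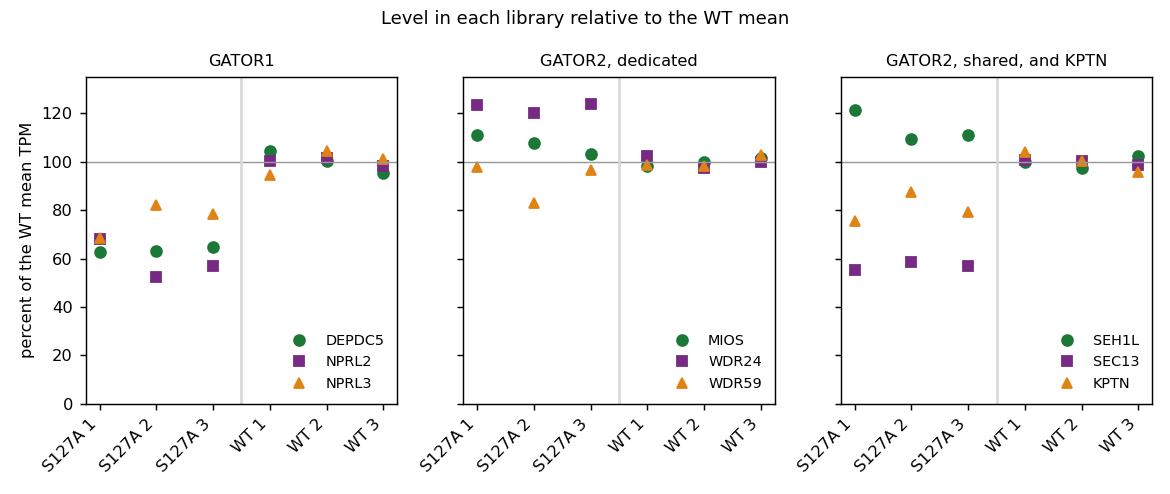
TPM in each library as a percent of the gene's WT mean, S127A libraries on the left of each panel and WT libraries on the right. The left panel holds GATOR1, the middle panel the dedicated GATOR2 subunits, and the right panel SEH1L, SEC13 and KPTN. GATOR1 subunits lie at 52.3% to 81.95% in S127A, the dedicated GATOR2 subunits at 82.8% to 124%.

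The mean level of the GATOR1 subunits was lower than that of the dedicated GATOR2 subunits in S127A and higher in WT, although MIOS lay above all 3 GATOR1 subunits in both groups and WDR59 below NPRL3 in both. The mean over the 3 GATOR1 subunits was 13.3, 13.1 and 13.3 TPM in S127A, against 19.9, 20.4 and 19.6 TPM in WT. The mean over MIOS, WDR24 and WDR59 was 19.6, 18.4 and 18.9 TPM in S127A, against 17.5, 17.4 and 17.8 TPM in WT. The GATOR1 mean divided by the GATOR2 mean was 0.68, 0.71 and 0.70 in the S127A libraries and 1.14, 1.17 and 1.1 in the WT libraries. The ratio lies within a library, so the scaling of the library does not enter it. It was formed after the values were seen and is given without a test.

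In WT the order of the 9 by mean TPM was SEC13, SEH1L, MIOS, NPRL2, NPRL3, DEPDC5, WDR24, WDR59 and KPTN. Neighbours in this order overlapped in their 3 values for NPRL2 with NPRL3, NPRL3 with DEPDC5, and WDR59 with KPTN. In S127A the order was SEC13, SEH1L, MIOS, WDR24, NPRL3, WDR59, NPRL2, DEPDC5 and KPTN, and the neighbours WDR59, NPRL2 and DEPDC5 overlapped. WDR24 stood above all 3 GATOR1 subunits in S127A and below all 3 in WT, without overlap in either group. MIOS held the third place in both groups.

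By centred log2(TPM + 1) over the 6 libraries, each subunit had a gene that followed it closely. The nearest to DEPDC5 was P4HA2 (root mean square difference 0.0237 on the log2 scale), to NPRL2 it was ZIK1 (0.0209) and to NPRL3 it was PC (0.0228). The nearest to WDR24 was CHD1 (0.00952), to MIOS DHX29 (0.0153), to WDR59 KDM5C (0.0230) and to SEH1L CETN3 (0.0121). LGALS3 was nearest to SEC13 (0.00971) and KLHL25 to KPTN (0.0243). With 6 libraries in 2 groups such likeness is common: 195 genes lay within 0.1 of NPRL2, the fewest for any subunit, and 1159 within 0.1 of MIOS, the most.

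Some genes of the pathway and of complexes that share SEC13 or SEH1L changed more than any subunit, as did 43.5% of all tested genes. The counts of calls in the lists that follow stand beside 90.0% of all tested genes called, 40.2% higher and 49.8% lower, and a median log2 difference of −0.12, and nothing particular to a list is read from them. Of 10 genes for Rag GTPases, the Ragulator that anchors them and the lysosomal arginine sensor SLC38A9, 7 were lower, 2 higher and 1 did not pass, with a median log2 difference of −0.89. The 1 that did not pass was SLC38A9, which was called higher after quantile normalization (0.23, adjusted p = 0.00607 by limma). RRAGD, whose product RagD pairs with RagA or RagB, was at 0.1, 0 and 0.05 TPM in S127A, against 21.5, 21.9 and 20.95 TPM in WT. RRAGB was at 0.05, 0 and 0 TPM in S127A and 1.96, 2.53 and 3.07 TPM in WT. RRAGA, which encodes RagA and was the more abundant of the GATOR1 substrates, was at 61.9 ± 0.491 TPM in S127A and 108 ± 4.09 TPM in WT. LAMTOR1, which anchors Ragulator to the membrane, fell with a log2 fold change of −1.31 and LAMTOR2 with −1.04, whereas LAMTOR3 and LAMTOR5 were the 2 that rose. The melanosome protein PMEL was at 4.12 to 4.68 TPM in S127A, against 3064 to 3130 TPM in WT. Any link between its level and those of the Rag genes was not tested.

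Of 8 tested genes for amino acid sensors and for regulators of GATOR or of the Rag GTPases, 7 were lower and 1 higher. Their median log2 difference was −0.95. SESN2, the leucine sensor that binds GATOR2, was the 1 that rose, at 86.7, 90.3 and 86.6 TPM in S127A, against 57.9, 64.2 and 64.9 TPM in WT. SESN1 was at 4.66 ± 0.148 TPM in S127A and 16.3 ± 0.613 TPM in WT, and SESN3 at 0.02 ± 0.0346 TPM in S127A and 24.4 ± 0.71 TPM in WT. FLCN, the activator of RagC and RagD, fell with a log2 fold change of −1.70 and its partner FNIP2 with −1.03. KLHL22, a ligase adaptor that marks DEPDC5 protein for degradation, was at 46.6 ± 3.15 TPM in S127A and 85.3 ± 4.56 TPM in WT. These are transcript levels, and any link between KLHL22 and DEPDC5 was not tested. The CASTOR and SAMTOR sensors were not analysed here.

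Of 9 genes for mTORC1 and its TSC and Rheb input, 7 were lower, 1 higher and 1 did not pass, with a median log2 difference of −0.46. The 1 that did not pass was MTOR, the kinase itself (0.062, adjusted p = 0.206 by limma), which was called higher with trimmed-mean factors (adjusted p = 0.00326), after quantile normalization (adjusted p = 0.0269) and at a common total (adjusted p = 0.0312). DEPTOR, an inhibitor of mTOR, was at 1.57 ± 0.111 TPM in S127A and 29.8 ± 2.06 TPM in WT. AKT1S1, another inhibitor, fell with a log2 fold change of −0.997, TBC1D7 of the TSC complex with −0.65 and TSC1 with −0.51. RHEB, the GTPase that activates mTORC1, was the 1 that rose (0.24, adjusted p = 7.37e-05 by limma). TSC2 no longer passed with trimmed-mean factors (−0.088, adjusted p = 0.057 by limma).

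The other complexes that hold SEC13 and SEH1L went both ways. Of 8 further nucleoporins of the Y complex 4 were higher, 3 lower and 1 did not pass, with a median log2 difference of 0.16. NUP107 (0.92), AHCTF1 (0.67) and NUP37 (0.64) had the largest rises and NUP85 (−0.47) the largest fall, all as log2 fold changes. NUP98, whose transcript also encodes the Y complex member NUP96, lost its call under each of the 3 rescalings (−0.013 with trimmed-mean factors, adjusted p = 0.748 by limma), and NUP43, which had not passed, was called higher with trimmed-mean factors (0.17, adjusted p = 0.0128 by limma). Of 12 COPII genes 6 were higher, 5 lower and 1 did not pass, with a median of 0.08. SEC23B, the 1 that did not pass, was called higher under each of the 3 rescalings, by 0.081 to 0.15. SEC31A, the direct partner of SEC13 in the outer coat, was at 149, 149 and 146 TPM in S127A, against 77.95, 75.3 and 79.96 TPM in WT. SEC13 was at 158 ± 4.97 TPM beside SEC31A at 148 ± 1.87 TPM in S127A, against 278 ± 2.78 TPM beside 77.8 ± 2.32 TPM in WT (SD, n = 3 each). SEC24D (1.02) and SEC24B (0.64) also rose, and SAR1B (−1.15) fell, by log2 fold change.

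**Figure D4:**
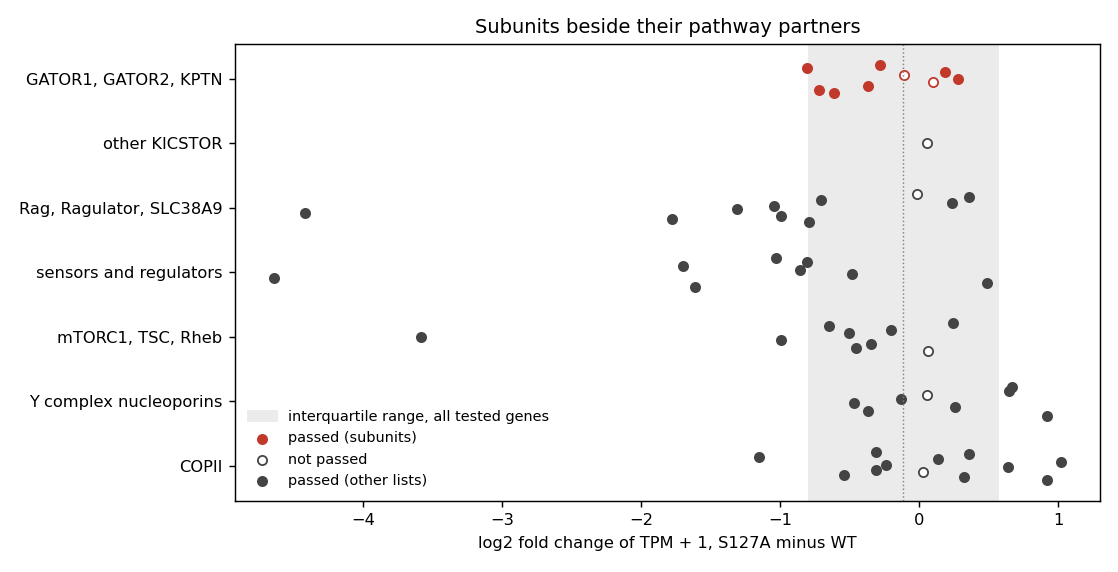
Log2 fold change (S127A minus WT, TPM as deposited) of every tested gene of the 9 subunits and of 6 lists of partners. Filled points passed the test and open points did not. The shaded band is the interquartile range of all tested genes, −0.79 to 0.57, with their median dotted. All subunits but SEC13 lie inside the band, and RRAGD, SESN3 and DEPTOR lie farthest to the left.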

How the data were processed

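RNA-seq libraries, 3 of S127A and 3 of WT cells, were grouped by their titles. The values are TPM as deposited by the authors, per the file headers, each divided by gene length and library total, for 1 table of all libraries. The submitters' processing notes name mm10. For the aligner, quantifier, annotation and strand setting, nothing is stated in the labels or the file. TPM keeps no depth, so depth is unknown and no counting error is given. The columns summed to 830745 to 833332 TPM in S127A and 862949 to 864529 TPM in WT, so part of each total lies outside the table.

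Genes averaging at least 1 TPM were fitted as log2(TPM + 1), whose pseudocount of 1 understates changes of low genes, with limma 3.58.1 in R 4.3.3 (eBayes with trend, two-sided, genotype the only term), Benjamini-Hochberg adjusted over 10348 genes. The fit was tested on simulated data. An exact permutation test of 3 against 3 cannot go below p = 0.1 and was not used. Promoter motifs, summaries and figures used pandas 2.3.3 and numpy 2.4.6 under Python 3.11.15. Coordinates are from GENCODE M21. Alternatives were pseudocounts of 0.1 and 5, no filter or a mean of at least 5 TPM, trimmed-mean factors computed on TPM, quantile normalization, a common total, no trend, robust hyperparameters, a replicate block, and each library left out. The named genes were the 9 subunits, the nearest profile to each, and up to 4 called genes per partner list by size of change, with others named for the comparison they serve. Some genes of the lists are not reported here. Members and lists were chosen with earlier results of these data known.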

Additional observations from a re-analysis of the deposited data

How the results depend on the processing

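Over 16 alternatives, 5 subunits were lower in every one and 2 or 3 were higher, the third being MIOS. Leaving out 1 library gave 5 lower and 2 to 3 higher, and 9123 to 9211 genes called over the table. DEPDC5 ranged from −0.65 to −0.49, NPRL2 from −0.82 to −0.58, NPRL3 from −0.42 to −0.26, SEC13 from −0.83 to −0.69, KPTN from −0.34 to −0.17, WDR24 from 0.23 to 0.39 and SEH1L from 0.14 to 0.30 on the log2 scale, each called throughout. WDR59 turned from −0.11 to 0.0029 with trimmed-mean factors, where the libraries are rescaled by construction, and was called in none. Replicate numbers did not pair the libraries: deviations of same-numbered S127A and WT libraries correlated at 0.117, 0.017 and 0.028 across genes, and only the first S127A library correlated best with its own number. The replicate block gave 2 higher and 5 lower subunits and 9339 called genes, against 9315 without it. Under the 3 rescalings the genes lower in S127A numbered 7 of 10 in the Rag list, 7 of 8 among sensors, 6 or 7 of 9 around mTORC1, 2 of 8 in the Y complex and 5 of 12 in COPII, and SLC38A9 turned from −0.019 to between 0.027 and 0.23, called in 1 of the 3. Depth is unknown, so the replicate spread is the only error behind these values.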
